A study of Mus musculus with 14 samples.

Results

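Lymphoid priming genes are a set of 10 genes, chosen by name, that blood progenitors transcribe at a low level before they commit to a lymphoid fate. All 10 (Dntt, Flt3, Il7r, Rag1, Rag2, Satb1, Ccr9, Notch1, Ighm and Ly6d) were among the 55487 genes counted in the 14 RNA sequencing libraries. LSK (Lin-Sca1+c-kit+) cells, the fraction that holds stem cells and multipotent progenitors, and LK (Lin-c-kit+) cells, the myeloid progenitor fraction, were sorted from mice whose blood cells carried a heterozygous Jak2V617F allele. Per the paper's results, mice given this treatment were lethally irradiated C57BL/6 recipients of marrow from Jak2VF/+ donors in which the allele had been induced by pI-pC. For sequencing the paper names treated Mx1Cre;Jak2VF/+ mice and does not mention the transplant. The mice received PBS or IL-1β (0.5 μg per dose) at 3 doses per week for 16 weeks. Both treatments carried the mutant allele, so no wild-type progenitors enter these comparisons. Each population had 3 PBS and 2 IL-1β libraries. Mesenchymal stromal cells (MSC) were grown for 21 days from wild-type C57BL/6 marrow. They were exposed for 72 h to PBS or to 5 ng/ml IL-1β and had 2 libraries per treatment. The ages of the mice were not used here. The labels do not say that libraries of a group came from separate mice or cultures, so p-values measure the spread between these libraries.

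Lymphoid cells arise from multipotent progenitors through a stage in which a few lymphoid genes are already transcribed beside stem cell and myeloid genes. The cytokine receptors FLT3 and IL-7R sustain that stage, the chromatin organiser SATB1 and the receptor NOTCH1 act in lymphoid and T cell specification, and the enzymes encoded by Dntt, Rag1 and Rag2 assemble antigen receptor genes by V(D)J recombination. Inflammatory cytokines such as IL-1 are known for favouring myeloid over lymphoid output of these progenitors.

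With PBS, between 12172400 and 16271408 read pairs were counted per LSK library, and with IL-1β 8641124 (replicate 1) and 4393233 (replicate 2). The LK totals were 12804883 to 18544346 with PBS, and 7652483 and 6367352 with IL-1β. In both populations all IL-1β libraries were thus shallower than any with PBS, so genes with few counts have a higher floor with IL-1β. The MSC libraries held 5834909 to 30871055. Levels are given as CPM, counts scaled to library size after TMM normalization (scaling factors that make most genes equal between libraries), on 1 scale over the 10 LSK and LK libraries and on a separate scale over the MSC libraries. Ly6a, which encodes Sca-1, was at 34.1 ± 6.80 CPM (SD, n = 3) in LSK and 0.588 ± 0.289 (SD, n = 3) in LK cells with PBS, and Kit, the c-kit gene, was at 534 ± 102 and 312 ± 26.6. In MSC, the summed level of 10 mesenchymal markers was 1302 to 2843 CPM over the 4 libraries. Macrophage markers were much higher there, with a summed level of 10 genes of 11855 and 15631 CPM with PBS, and 31878 and 32784 with IL-1β.

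With IL-1β, Dntt and Flt3 fell in both LSK and LK cells, and Ighm fell in LK cells. These genes were called by edgeR's quasi-likelihood test, which required a Benjamini-Hochberg adjusted p under 0.05 over all genes tested and a log2 fold change past 0.5 in either direction. The 2 genes called in both populations are introduced by the sequence upstream of their starts, since both fell together in LSK and in LK cells. The 250 bases before the annotated start are shown 5′ to 3′ on the coding strand, from RefSeq on GRCm38.p6, for Dntt at chr19:41029025-41029274 (plus strand) and for Flt3 at chr5:147400490-147400739 (minus strand).
Dntt: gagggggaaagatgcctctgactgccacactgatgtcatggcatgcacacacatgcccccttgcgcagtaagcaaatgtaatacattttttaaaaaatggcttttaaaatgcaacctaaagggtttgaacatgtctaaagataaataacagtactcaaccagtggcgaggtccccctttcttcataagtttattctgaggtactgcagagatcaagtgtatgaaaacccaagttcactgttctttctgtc
Flt3: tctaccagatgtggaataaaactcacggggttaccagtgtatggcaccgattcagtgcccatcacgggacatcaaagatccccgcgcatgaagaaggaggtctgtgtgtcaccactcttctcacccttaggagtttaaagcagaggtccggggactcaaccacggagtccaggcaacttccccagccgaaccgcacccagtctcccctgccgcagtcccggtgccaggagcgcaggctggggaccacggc
RefSeq windows of 250 bases before and 50 after the start were found for 8 of the 10 genes, 12 windows in all, and for neither Ighm nor Ly6d. They were searched on both strands for TGGGAA (Ikaros core, in 25.6% of all 32851 promoter windows), CAGGTG and CAGCTG (E-boxes, 20.2% and 16.3%), TGTGGT (Runx, 16.8%) and a κB site (1.63%). No letters are in capitals, because neither Dntt nor Flt3 held a match to any of these. Rag2 and Notch1 held none either, Il7r held 1 Runx match, and the Rag1 window held matches to the first 4 motifs. Ccr9 held 1 CAGGTG match. Satb1 had 5 windows, of which windows 2 and 4 held none and the others held E-box or Ikaros core matches. These are matches of letters only.

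Dntt encodes terminal deoxynucleotidyl transferase, which adds untemplated nucleotides at V(D)J junctions. The gene (ENSMUSG00000025014) lies on chromosome 19 at 41029275-41059525 of GRCm38. In LSK cells it was at 118.0, 351.5 and 101.0 CPM with PBS and at 2.96 and 6.61 CPM with IL-1β. The groups did not overlap, and PBS replicate 2 stood well above the other PBS libraries. The log2 fold change was -5.36 ± 0.71 (SE, edgeR adjusted p = 0.0161). Lack of overlap was common, here and for the genes below. Both IL-1β libraries lay below all PBS libraries for 22.8% of all genes tested in LSK and 22.4% in LK cells. In LK cells Dntt was at 3.11, 4.94 and 5.96 CPM with PBS (39, 96 and 83 counts) and at 0 in both IL-1β libraries. Against a floor of 3 counts per library it was at least 10.6-fold lower there (edgeR adjusted p = 0.00518). Without IL-1β replicate 1, which leaves 1 IL-1β library assumed to vary as the PBS libraries do, the LK decrease was not called (edgeR adjusted p = 0.0736), though the remaining library also had 0 counts.

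Rag1 and Rag2, which encode the recombinase that cuts antigen receptor genes, were almost silent. Rag1 had 2 counts in 1 LSK library with PBS and 0 counts in the other 13 libraries. Rag2 had 30, 5 and 12 counts in LSK cells with PBS and 0 with IL-1β. Against the same floor this is at least 2.05-fold lower, but without PBS replicate 1 the bound was 0.996, so no decrease was shown without that library. In LK cells Rag2 had 2, 8 and 2 counts with PBS and 2 and 4 with IL-1β, a ratio of IL-1β to PBS of 1.67 after scaling to library size (exact 95% interval 0.514 to 4.80, counting error only). Neither gene had enough counts to be tested in any comparison.

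Flt3, on chromosome 5 at 147330741-147400489, encodes the receptor tyrosine kinase for FLT3 ligand and marks multipotent progenitors that have kept lymphoid potential. In LSK cells it was at 261.7, 268.8 and 244.8 CPM with PBS and at 63.7 and 29.1 CPM with IL-1β. The PBS libraries agreed closely, and both IL-1β libraries lay far below them. The log2 fold change was -2.42 ± 0.35 (SE, edgeR adjusted p = 0.0207). In LK cells Flt3 was at 27.8, 25.5 and 37.0 CPM with PBS and at 7.57 and 3.70 CPM with IL-1β, again without overlap. The log2 fold change was -2.39 ± 0.32 (SE, edgeR adjusted p = 0.00518), and it was called in all 13 alternative fits, with -3.03 as the largest decrease when LK IL-1β replicate 1 was left out. In bulk cells, fewer cells that transcribe a gene and less RNA per cell cannot be told apart, here and in the results that follow.

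**Figure D1:**
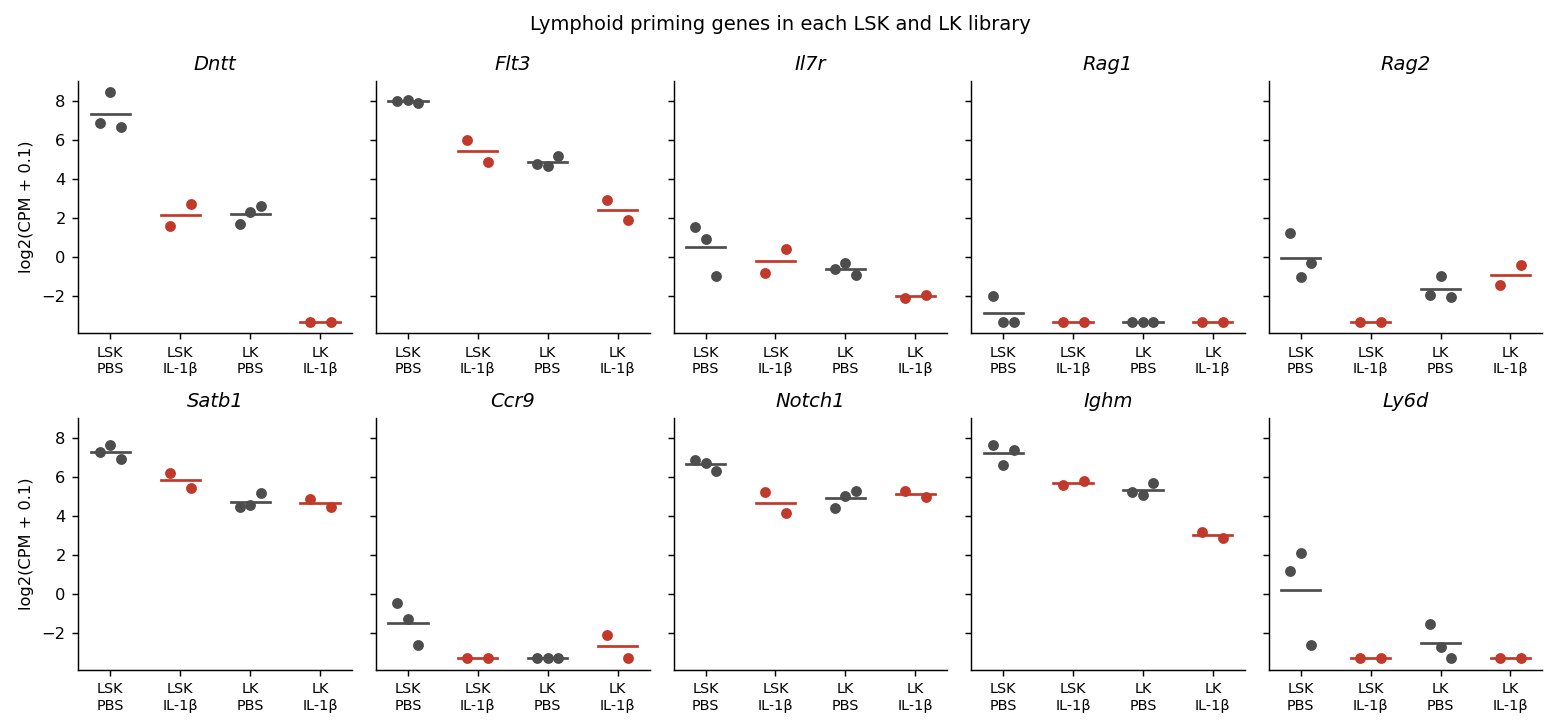
Level of each of the 10 genes in each of the 10 LSK and LK libraries, as log2(CPM + 0.1), with grey points for PBS, red points for IL-1β and a bar at the mean of the log2 values. Dntt and Flt3 drop with IL-1β in both populations, whereas the IL-1β libraries of Satb1 and Notch1 lie below the PBS libraries in LSK and overlap with them in LK cells. Points at the lower edge are libraries with 0 counts.

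The other receptors of the set were at low levels in the progenitors. Il7r, on chromosome 15, encodes the α chain shared by the IL-7 and TSLP receptors. It had 37, 23 and 7 counts in LSK cells with PBS and 4 and 5 with IL-1β, which is 2.80, 1.78 and 0.407 CPM against 0.473 and 1.22. The groups overlapped, with a log2 fold change of -0.97 ± 1.21 (SE, edgeR adjusted p = 0.705). In LK cells it had 7, 14 and 6 counts with PBS and 1 in each IL-1β library, a ratio of 0.247 after scaling (exact 95% interval 0.0285 to 0.983, counting error only), and it was not tested. The antibody mix for lineage markers in the study's methods held IL-7Rα, so cells with this protein at the surface would have been gated out where that mix was used. Ccr9, the receptor for the thymic chemokine CCL25, had 8, 4 and 1 counts in LSK cells with PBS and 0 in both IL-1β libraries. In LK cells it had 1 count over all 5 libraries. These counts are too few for a fold change between treatments.

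Satb1 encodes a chromatin organiser that supports lymphoid gene expression in early progenitors. It was at 155.5, 203.1 and 120.4 CPM in LSK cells with PBS and at 73.8 and 43.8 CPM with IL-1β. The groups did not overlap, and the log2 fold change was -1.39 ± 0.33 (SE), short of the threshold (edgeR adjusted p = 0.0882). In LK cells the libraries of the treatments overlapped, at 21.6, 23.7 and 36.6 CPM with PBS and 29.2 and 22.2 with IL-1β, and the log2 fold change was -0.08 ± 0.25 (SE, edgeR adjusted p = 0.873).

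Notch1, on chromosome 2, encodes the receptor whose signal directs progenitors to the T cell lineage. It was at 118.8, 105.8 and 79.5 CPM in LSK cells with PBS and at 37.7 and 17.4 CPM with IL-1β. Both IL-1β libraries lay below all PBS libraries, with a log2 fold change of -1.82 ± 0.37 (SE) that was not called (edgeR adjusted p = 0.0653). In LK cells it was at 20.9, 32.5 and 38.9 CPM with PBS and at 39.3 and 31.5 CPM with IL-1β. These overlapped, with a log2 fold change of 0.20 ± 0.26 (SE, edgeR adjusted p = 0.674).

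Ighm, on chromosome 12 at 113418558-113422730, encodes the constant region of the μ heavy chain, which is also transcribed in germline form before the locus is rearranged. It was at 198.4, 99.4 and 167.1 CPM in LSK cells with PBS and at 47.5 and 55.8 CPM with IL-1β. The groups did not overlap, but the log2 fold change of -1.54 ± 0.32 (SE) missed the threshold (edgeR adjusted p = 0.0686). In LK cells Ighm was at 38.1, 33.9 and 52.0 CPM with PBS and at 8.90 and 7.23 CPM with IL-1β. There it fell with a log2 fold change of -2.35 ± 0.24 (SE, edgeR adjusted p = 0.00186), called in all 13 alternative fits.

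The defining B cell markers were at or near 0 in the same libraries. Pax5 had 0 counts in every LSK and LK library, and Ebf1 had 1 count over the LSK and 2 over the LK libraries with PBS. Cd79a and Ebf1 had 0 counts in all 4 IL-1β libraries. The summed level of 15 B lineage genes was 20.2 to 24.7 CPM in LSK cells with PBS and 11.1 and 18.6 CPM with IL-1β. Cd79b was at 14.5 ± 8.08 (SD, n = 3) and 14.1 ± 4.69 CPM (SD, n = 2). In PBS replicate 2 Blnk, at 8.75 CPM, and Cd22, at 3.79 CPM, made up more of the sum than Cd79b at 5.73. Blnk was at 0.984 and 0.291 CPM in the other PBS libraries and at 0.118 and 0.245 with IL-1β, and Cd22 was at 0.908 and 0.233 CPM in those PBS libraries and at 0 with IL-1β. In LK cells the summed level of the 15 B lineage genes was 9.09 to 12.9 CPM with PBS, and 14.3 and 15.3 with IL-1β. Of plasma cell genes, 0 of 3 were called in LSK and 1 of 4 in LK cells (Sdc1, lower), with a summed level of 141 to 179 CPM in LSK cells with PBS and 146 and 202 with IL-1β. Jchain, their defining gene of the antibody joining chain, was at 22.8 ± 4.53 CPM (SD, n = 3) and 9.95 ± 7.05 (SD, n = 2). Plasmacytoid dendritic cell genes had 0 of 5 called in each population.

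Ly6d, whose product marks lymphoid progenitors committed to the B lineage, had 28, 53 and 1 counts in LSK cells with PBS and none with IL-1β. Against the floor it was at least 3.84-fold lower, and the test did not pass (edgeR adjusted p = 0.217). Without PBS replicate 2, the library with most Ly6d counts, the bound was 2.0-fold. In LK cells Ly6d had 3, 1 and 0 counts with PBS and 0 with IL-1β.

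Counted together, 2 of the 7 genes tested in LSK cells were called lower and none higher, where 0.312% of all 13132 genes tested were called lower and 0.32% higher. All 7 log2 fold changes were negative, with a median of -1.82 against -0.06 for all genes tested, and 6 of them had an unadjusted p under 0.05, as did 10.5% of all genes in that direction. A gene with few counts can pass the filter through its PBS libraries alone, as Ly6d did, so the median is a description of the genes that passed. Both calls were lost without either IL-1β library, which leaves 1 library in that group, assumed to vary as the PBS libraries do. The decreases stayed large. Without IL-1β replicate 1 the log2 fold change was -4.83 for Dntt (edgeR adjusted p = 0.138) and -3.13 for Flt3 (0.0577), and without replicate 2 it was -5.93 (0.177) and -1.95 (0.152). Without PBS replicate 3, 4 genes were called lower, with Satb1 and Notch1 added, and without PBS replicate 2 the log2 fold change of Dntt was -4.54. DESeq2's Wald test called 5, with adjusted p of 0.00394 for Satb1, 0.000265 for Notch1 and 0.000569 for Ighm.

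In LK cells 5 genes were tested, of which 3 were called lower and none higher, against 2.57% of all 12835 genes called lower and 6.77% called higher. Their median log2 fold change was -2.35, and that of all genes was -0.03. Dntt, with 0 counts in both LK IL-1β libraries, passed the filter through its PBS libraries alone. The count called and the median are thus descriptions of the genes that passed. The level summed over the 10 genes was 714 to 1035 CPM in LSK cells with PBS against 154 and 226 CPM with IL-1β. In LK cells it was 112 to 171 CPM with PBS and 65.4 and 85.5 CPM with IL-1β.

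**Figure D2:**
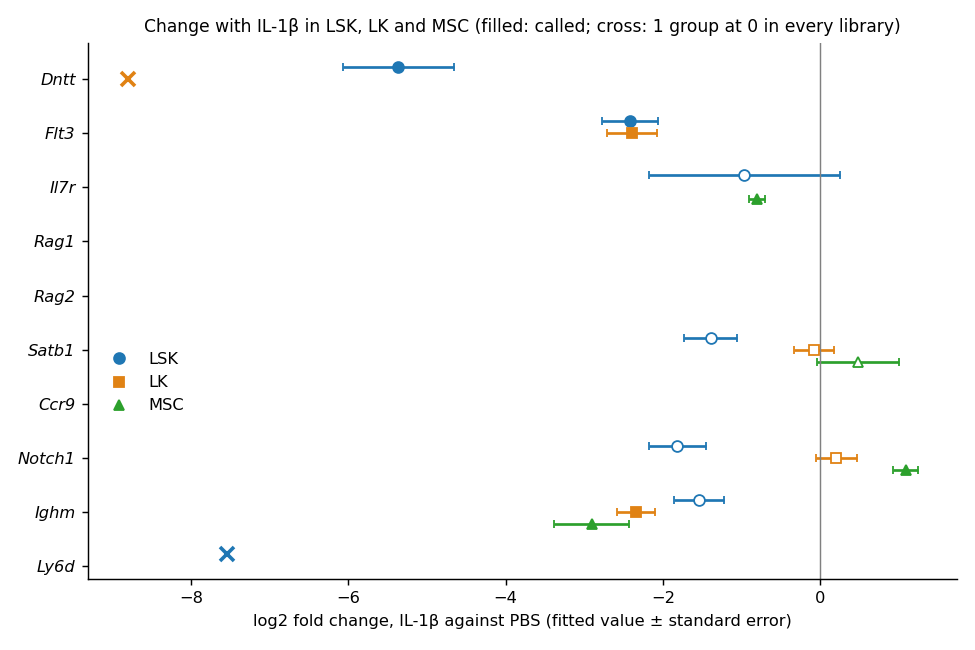
Fitted log2 fold change with IL-1β against PBS (x axis) for each gene tested, as value ± standard error, in LSK (blue circles), LK (orange squares) and MSC (green triangles). Filled symbols were called, and crosses mark Dntt in LK and Ly6d in LSK, where every IL-1β library had 0 counts and the fitted value is no measure of size. All LSK values lie below 0, and Notch1 lies below 0 in LSK and above 0 in MSC.

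Whether LSK and LK cells responded differently was tested as an interaction over their 10 libraries. Of the 7 genes tested, none was called, and 0.00723% of all 13839 genes were called with a higher and 0.0217% with a lower response in LSK cells. At an unadjusted p under 0.05 there were 2 of the 7, against 647 genes higher and 1320 lower (9.54%) over the whole table. They were Notch1, with a difference of -2.06 ± 0.47 on the log2 scale (SE, edgeR adjusted p = 0.137), and Satb1, with -1.35 ± 0.43 (SE, edgeR adjusted p = 0.226). DESeq2 gave an adjusted p of 0.00844 for Notch1 and called no other of these genes. The differences for Flt3 (-0.06, edgeR adjusted p = 0.971) and Ighm (0.76 ± 0.42, edgeR adjusted p = 0.428) did not pass either. Dntt (3.36 ± 3.59, SE) and Ly6d (SE 12868) had 0 counts in both LK IL-1β libraries. For these genes the test cannot tell whether the responses differ. Without the filter on low counts Notch1 and Satb1 were called, so whether the responses of these 2 genes differ depended on the tool and the filter.

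With PBS, lymphoid priming genes were at higher levels in LSK than in LK cells. Of 6 genes tested 5 were called higher and none lower, where 18.4% of all 12737 genes were called higher and 12.8% lower. The log2 difference (LSK against LK) was 5.31 ± 0.55 for Dntt (SE, edgeR adjusted p = 0.000429), 3.07 ± 0.19 for Flt3 (9.38e-05), 2.51 ± 0.27 for Satb1 (0.000497), 1.87 ± 0.28 for Ighm (0.00179) and 1.68 ± 0.26 for Notch1 (0.00203). These 5 were called in all 13 alternative fits, the fit that paired LSK and LK libraries by replicate number included. The largest shift was for Dntt, at 4.50 without LSK PBS replicate 2. For Il7r the log2 difference was 1.48 ± 0.81 (SE, edgeR adjusted p = 0.197), which did not pass. Among genes with few counts, Ly6d had 82 counts in LSK against 4 in LK cells, a ratio of 21.7 after scaling (exact 95% interval 8.16 to 81.6, counting error only). Rag2 had 47 against 12, a ratio of 4.15 (2.17 to 8.59), and for both genes the libraries of the populations overlapped.

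With IL-1β, 3 of 5 genes tested were called higher in LSK than in LK cells and none lower, against 4.18% and 4.14% of all 11743 genes. Dntt, with 0 counts in LK cells, passed the filter through its LSK libraries alone, and was at least 10.9-fold higher (edgeR adjusted p = 0.0246). Flt3 differed by 3.05 ± 0.49 (SE, edgeR adjusted p = 0.0168) and Ighm by 2.67 ± 0.25 (SE, edgeR adjusted p = 0.00458) on the log2 scale. Without LSK IL-1β replicate 1 the Flt3 difference was 2.36, and without LK IL-1β replicate 1 it was 3.64, both called. Satb1 (1.21 ± 0.31, edgeR adjusted p = 0.0555) and Notch1 (-0.33 ± 0.37, edgeR adjusted p = 0.598) did not pass. With the LSK and LK libraries paired by number Satb1 was called (1.17, edgeR adjusted p = 0.00112), and Notch1 was called lower without LSK IL-1β replicate 1 (-1.01).

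Levels of different genes were set side by side as CPM per kilobase of annotated exon. In LSK cells with PBS the order began with Dntt at 83.0 ± 61.1 (SD, n = 3) and Ighm at 82.2 ± 26.8, which did not differ beyond their spread. Flt3 was at 41.8 ± 2.0, below Ighm but within the spread of Dntt. Satb1 at 8.39 ± 2.18 and Notch1 at 7.12 ± 1.41 followed, again within their spread. Ly6d at 2.81 ± 2.72, Il7r at 0.356 ± 0.257 and Rag2 at 0.327 ± 0.295 could not be ordered. Ccr9 and Rag1 were at 0.0316 and 0.00763. With IL-1β, Ighm came first in LSK cells at 27.4 ± 3.12 CPM per kilobase (SD, n = 2), above Flt3 at 7.52 ± 3.96, Satb1 at 3.09 ± 1.11, Dntt at 2.09 ± 1.13 and Notch1 at 1.94 ± 1.01, of which the last 3 overlapped.

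Genes around the set were described by lists. The partners of RAG and TdT in V(D)J recombination, such as the end-joining factors Xrcc5 and Lig4, had 0 of 13 genes called in LSK and 0 of 13 in LK cells, with medians of -0.09 and -0.16. These proteins also repair DNA breaks in cells of every kind. Of 17 early lymphoid regulators tested in LSK cells, 16 had a negative log2 fold change, with a median of -0.69, and 1 was called. That was Irf8, a transcription factor of dendritic cell and monocyte as well as early lymphoid development, which fell from 153 ± 55.6 (SD, n = 3) to 26.7 ± 3.05 CPM (SD, n = 2). Its log2 fold change was -2.48 ± 0.35 (SE, edgeR adjusted p = 0.0207). In LK cells Irf8 also fell (-2.59 ± 0.38, edgeR adjusted p = 0.0122), as did Bcl11a (-0.75), a factor of early B cell development, and 3 of 17 were called lower in all. Ikzf3, a relative of Ikaros, rose in LK cells from 0.252 ± 0.279 to 3.85 ± 0.00510 CPM (log2 fold change 3.91 ± 0.78, edgeR adjusted p = 0.0184), and Foxp1 rose by 0.65 on the log2 scale, the 2 genes called higher. The median of the 17 genes tested in LK cells was -0.09.

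For the pathways downstream of the receptors, none of 10 genes of IL-7 and FLT3 receptor signalling was called in LSK cells (median -0.32). In LK cells Jak3, the kinase bound to the common γ chain, rose by 0.87 ± 0.21 on the log2 scale (SE, edgeR adjusted p = 0.0377), the only call among 10. Of the Notch pathway genes, 0 of 12 were called in LSK (median -0.29) and 1 of 9 in LK cells, where Dtx4 rose by 1.55 ± 0.32 (SE, edgeR adjusted p = 0.0323). Of all genes tested in LK cells, 6.77% were called higher and 2.57% lower, the shares to set beside every list there. A single call in lists of this size is near that share. At an unadjusted p under 0.05 in LSK cells, 2 of the 10 signalling genes were lower and none higher, and of the 12 Notch pathway genes 1 was lower and 2 were higher. By edgeR, 0.312% of all genes tested in LSK cells were called lower and 0.32% higher. No call among lists of this size is thus what the whole table shows, and it does not show that the lists were unchanged. The lists were fitted with edgeR alone, and DESeq2 called more of the lymphoid priming genes than edgeR did.

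None of the 4 B lineage genes tested was called in LSK cells (median -2.76, or -1.45 with genes at 0 set to their bound) and none of 2 in LK cells. None of the 7 T lineage genes tested in LSK cells was called (median -1.12). Lck, the kinase of the T cell receptor, had -2.44 ± 0.54 (SE, edgeR adjusted p = 0.0808) there. The 7 did not move as 1, with 5 negative and 2 positive values. Thy1 was positive, at 1.22 ± 0.30 (SE, edgeR adjusted p = 0.0983). In LK cells 1 of 6 was called, Thy1, which rose by 3.24 ± 0.46 (SE, edgeR adjusted p = 0.00658). Cd3e was at 0 counts in every LK library and in both LSK IL-1β libraries. Natural killer and innate lymphoid genes had 0 of 5 called in LSK and 2 of 4 called higher in LK cells (Nkg7 and Zbtb16). Their summed level in LSK cells, 125 to 129 CPM with PBS and 243 and 316 with IL-1β, was mostly that of Nkg7, at 96.0, 102.0 and 106.5 CPM with PBS and 193.4 and 291.2 with IL-1β (edgeR adjusted p = 0.0582).

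Genes of other cell types moved with the same treatment. Of 11 neutrophil genes tested in LSK cells, 5 were called higher, among them Lcn2 (6.71 ± 0.44) and Elane (3.32 ± 0.39), and none lower. The summed level of the 13 neutrophil genes was 2206 to 3206 CPM in LSK cells with PBS and 10174 and 12220 with IL-1β, and 4531 to 9780 against 18968 and 22292 in LK cells, where 8 of 12 were called higher. All 11 stem cell genes had a negative log2 fold change in LSK cells (median -1.01), and Hlf (-2.08 ± 0.31) was among those called lower. Their summed level was 1324 to 1866 CPM with PBS and 866 and 952 with IL-1β. Erythroid genes had 0 of 10 called in LSK and 5 of 11 called lower in LK cells. These lists moved in the same libraries as the lymphoid priming genes, and their part in the decrease of those genes was not tested.

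**Figure D3:**
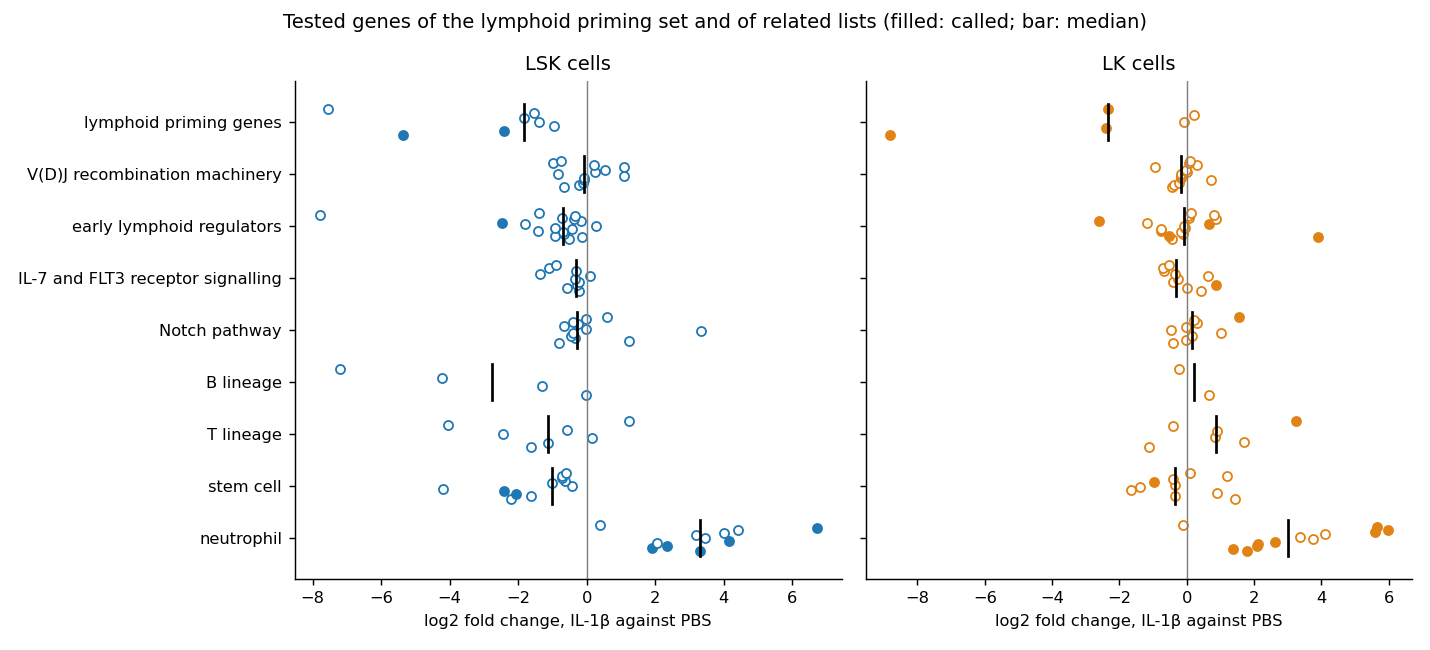
Log2 fold change with IL-1β against PBS (x axis) of every tested gene of the lymphoid priming set and of 8 other lists (rows) in LSK (left) and LK cells (right). Each point is a gene, filled where called, and the black bar is the median of the row. In LSK cells all tested lymphoid priming genes lie left of 0 and all tested neutrophil genes right of it. In LK cells Dntt, Flt3 and Ighm lie to the left, Satb1 and Notch1 near 0, and the neutrophil genes to the right but for Mmp8 near 0.

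The genes whose pattern over the 10 LSK and LK libraries was most like that of 3 of the lymphoid priming genes were found by the root mean square difference of centred log2 CPM, a description with no test. Nearest to Dntt were H2-Aa (1.33), Hspa12b (1.39), Gm19590 (1.41), H2-Eb1 (1.45) and Trpc6 (1.56). Nearest to Flt3 were Cysltr2 (0.51), Fam171a2 (0.52), Bpifc (0.54), Rnf150 (0.54) and Fcgrt (0.56). Nearest to Il7r were Socs2 (0.45), Gm46218 (0.49), Stxbp6 (0.51), C230062I16Rik (0.54) and Dock4 (0.59). No other lymphoid priming gene was among these, and all points share the same libraries and depths. Il7r had 1 to 37 counts per library, and Dntt had 0 in both LK IL-1β libraries. Their patterns thus rest in part on the small count added to every library before logs were taken.

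In cultured MSC, Dntt, Flt3, Rag1 and Rag2 had 0 counts in all 4 MSC libraries, and Ccr9 and Ly6d had at most 3. Of 4 genes tested, 1 was called higher and 2 lower, against 7.14% and 4.31% of all 13239 genes. Il7r was at 291.9 and 274.8 CPM with PBS and at 165.7 and 158.0 CPM with IL-1β. The log2 fold change was -0.81 ± 0.10 (SE, edgeR adjusted p = 0.0100). Levels in MSC and in progenitors were scaled separately, so they were not tested against each other.

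Notch1 rose in MSC, from 24.3 and 27.1 CPM with PBS to 61.1 and 47.9 CPM with IL-1β (log2 fold change 1.08 ± 0.16, edgeR adjusted p = 0.0146). Ighm fell from 31.3 and 17.7 with PBS to 4.26 and 1.76 CPM with IL-1β (log2 fold change -2.90 ± 0.48, edgeR adjusted p = 0.0255). For both genes the treatments did not overlap, but 31.3% of all genes tested in MSC lay wholly higher and 29.8% wholly lower. Satb1 was low, at 1.83 and 0.902 CPM against 1.60 and 2.03 with IL-1β, and its log2 fold change of 0.48 ± 0.52 did not pass (edgeR adjusted p = 0.585). All 3 calls were lost when either IL-1β library was left out, which leaves 1 library in that group, assumed to vary as the PBS libraries do. Without replicate 1 the log2 fold change was -0.84 for Il7r (edgeR adjusted p = 0.232), 0.90 for Notch1 (0.211) and -3.77 for Ighm (0.0994). Without replicate 2 it was -0.78 (0.213), 1.24 (0.0851) and -2.52 (0.117), so the directions were the same. Of 10 macrophage genes 6 were called higher in these libraries, and their part in the changes of Il7r, Notch1 and Ighm was not tested.

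**Figure D4:**
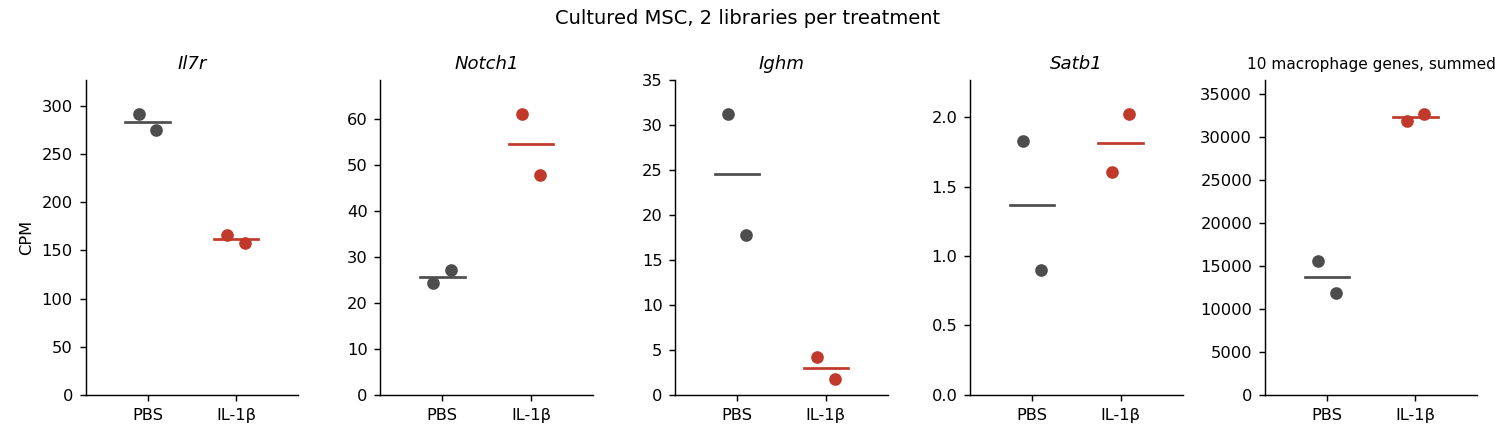
CPM of Il7r, Notch1, Ighm and Satb1 and the summed CPM of 10 macrophage marker genes in the 4 MSC libraries, each panel from 0 on its own scale, with points for libraries and bars for means. With IL-1β, Il7r and Ighm lie lower, Notch1 and the macrophage genes higher, and Satb1 overlaps.

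Several partners of these receptors changed in the MSC libraries, where 7.14% of all genes tested were called higher and 4.31% lower. Macrophage genes rose in the same libraries (6 of 10 called higher), and their part in these changes was not tested. The genes in this paragraph were not refitted with libraries left out. Il2rg, the common γ chain that pairs with IL-7R, rose by 1.63 ± 0.13 on the log2 scale (SE, edgeR adjusted p = 0.00297). With Cish and Jak3 it made 3 of 10 IL-7 and FLT3 signalling genes called higher. In the Notch pathway Rbpj (0.95 ± 0.10) and Notch2 (0.86 ± 0.13) rose and the Notch target Hes1 fell (-1.58 ± 0.20), 3 calls among 11 genes. Of the ligands a niche offers to lymphoid receptors, 7 were tested. The Notch ligand Jag1 rose from 13.7 ± 0.349 to 24.0 ± 1.73 CPM (SD, n = 2 each) and Kitl, the ligand of KIT, fell from 24.5 ± 2.16 to 14.8 ± 0.0729. Il7 was at 2.98 ± 0.495 CPM with PBS and 3.85 ± 0.669 with IL-1β (edgeR adjusted p = 0.498), and Flt3l, the ligand of FLT3, at 3.16 ± 0.00472 and 4.49 ± 0.498 (edgeR adjusted p = 0.284), both n = 2.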

How the data were processed

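RNA was sequenced from 10 LSK and LK and 4 MSC libraries. Deposited by the authors were raw read-pair counts for each gene. Per the labels and file headers, the authors used fastp 0.20.0, HISAT2 2.0.1 (GRCm38), SAMtools 1.10 and featureCounts 2.0.2 in reverse-stranded mode. The methods name GenomicAlignments for counting. Read pairs shared by genes were not counted under default settings, which can lower genes with near-identical copies. A further IL-1β MSC library named in a header was not analysed here.

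Symbols were matched for 55141 of 55487 identifiers. Counts were tested with edgeR 4.0.16 in R 4.3.3 (filterByExpr, TMM, estimateDisp, robust glmQLFit, glmQLFTest) within each comparison. Alternatives were DESeq2 1.42.0, limma-voom (limma 3.58.1), DESeq2's size factors, other filters, a replicate block, a joint fit, left-out libraries and, chosen after seeing the data, thinning to the lowest total and bounds without each PBS library. Floors (3 counts) and 95% intervals cover counting error only, and PCR copies are not independent molecules. Deviations of same-numbered LSK and LK libraries with PBS correlated at 0.21, 0.13 and 0.47 across genes. Different numbers gave -0.38 to 0.16, and LSK replicate 2 was closer to LK replicate 1 (0.16) than to LK replicate 2. Deviations within a group cancel out, which ties these values together, so whether the numbers pair the populations stayed undecided.

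The 10 genes and the lists were chosen with earlier results of these data known. All 10 genes are given in every library. From each list at most the 4 called genes with the largest change are named, with defining markers and the 5 nearest patterns for Dntt, Flt3 and Il7r. Xrcc5, Lig4, Lck, Blnk, Cd22, Mmp8 and the LSK value of Thy1 are outside this rule and were picked with their values known. The tests were checked on simulated data. Figures used matplotlib 3.10.9. Some listed genes are not reported here.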

Additional observations from a re-analysis of the deposited data

Results flagged for a closer look

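Notch1 differed in direction with IL-1β between 2 cell populations, though the change in LSK cells was not called. In LSK cells both IL-1β libraries lay below all PBS libraries (log2 fold change -1.82, edgeR adjusted p = 0.0653). In cultured MSC both lay above both PBS libraries (log2 fold change 1.08, edgeR adjusted p = 0.0146). The MSC call was lost when either IL-1β library was left out. Macrophage genes rose in the MSC libraries too, and their part was not tested. Of all genes tested, 22.8% lay wholly lower in LSK cells and 31.3% wholly higher in MSC. The difference between LSK and MSC was not tested, and the populations differ in genotype, in exposure and in being sorted or cultured. Groups of 2 and 3 libraries were too small for the check of single libraries that stand apart.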

How the results depend on the processing

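Between IL-1β and PBS in LSK cells, 2 of the genes were called lower by edgeR, against 5 with DESeq2, 5 with no filter on low counts, 5 in a fit of all 10 LSK and LK libraries, 1 with limma-voom (Flt3 alone, adjusted p of Dntt 0.129) and 3 with libraries thinned to the lowest total. With 1 library left out the number ranged from 0 to 4, and it was 0 without either IL-1β library. Under a replicate block it was 5, but PBS and IL-1β mice were different animals that share only a number (correlations of deviations 0.13 and -0.03 in LSK, -0.10 and 0.03 in LK cells). In LK cells the number called lower was 3 and 2 to 3 with 1 library left out. In MSC the numbers were 2 lower and 1 higher, with 1 lower after thinning (Ighm, adjusted p = 0.0583) and 0 to 2 lower and 0 to 1 higher with 1 library left out. The number of LSK-against-LK differences called with PBS was 5, and 5 to 6 with 1 library left out. The pairing of LSK and LK by replicate block changed no other call with PBS or IL-1β than that of Satb1. With IL-1β, 0 to 1 gene was called lower and 3 to 4 higher in LSK cells with 1 library left out. The interaction called 0 lower by edgeR, 1 with DESeq2, 2 with no filter (Notch1 and Satb1) and 0 to 1 with 1 library left out. Values near 0 changed sign. Satb1 in LK cells was 0.17 with the block and ranged from -0.31 to 0.19 over the alternatives. With 1 library left out, Notch1 in LK cells ranged from -0.0019 (without PBS replicate 1) to 0.41, Satb1 in MSC from -0.057 (without PBS replicate 3) to 0.97, and Notch1 between LSK and LK with IL-1β from -1.01 to 0.085 (without LSK IL-1β replicate 2). The interaction of Flt3 was 0.0021 with DESeq2, 0.0010 with DESeq2's size factors, 0.058 with no filter and 0.24 after thinning, and ranged from -0.72 to 0.60 over all alternatives. The causes of these shifts were not tested. No paired analysis was possible for MSC because the treatments share 1 replicate number. Depth limits Rag1, Rag2, Ccr9, Ly6d and Il7r in progenitors, whose counts were too few to show moderate changes. In LSK and LK cells, though not in MSC, all IL-1β libraries were shallower than any with PBS.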
